A study of Mus musculus with 16 samples.

Results

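The response of mouse wild-type hepatic progenitor cells to palmitic acid was described across all genes, from the 4 libraries of Ptpn1+/+ (WT) cells given 400 µM palmitic acid for 8 h and the 4 libraries of WT cells labelled as controls, 8 of the 16 libraries of the series. The other 8 libraries came from Ptpn1-/- (KO) cells, 4 with palmitic acid and 4 controls, and entered the shared fit and the test of whether the response differed between genotypes. PTP1B, the product of Ptpn1, removes phosphate from tyrosines of the insulin receptor and of JAK kinases. Total RNA was depleted of ribosomal RNA and sequenced in pairs of 76-nucleotide reads. Cells were kept in DMEM with 10% fetal bovine serum, and palmitic acid was added in medium with 5% serum and 1% bovine albumin. The labels do not state in which of these media the controls were kept, so palmitic acid and a change of medium cannot be told apart if the controls stayed in growth medium. They also do not state whether the replicates were separate cultures or how many cell lines stand for a genotype, so the p-values rest on variation among these libraries that may be technical only.

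Hepatic progenitor cells, also called oval cells, expand in injured liver when hepatocytes fail to divide, and they can give rise to hepatocytes and bile duct cells. Palmitic acid is the most common saturated fatty acid of the diet and of body fat. Inside a cell it is bound to coenzyme A and then burned in mitochondria, desaturated, stored in lipid droplets, or built into membrane lipids and ceramide. In hepatocytes an excess of it stresses the endoplasmic reticulum (ER) and starts the integrated stress response, in which phosphorylation of the translation factor eIF2α favours translation of the transcription factor ATF4.

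Depth and composition were alike in size but not identical between the groups. The WT libraries held 24391863 to 35693442 gene reads. Values are normalized counts, gene reads divided by 1 size factor per library, and are not per length, so levels are compared between libraries and not between genes. Mitochondrially encoded mRNAs held 3.67 ± 0.108% of the reads in the palmitate libraries and 3.48 ± 0.0507% in the control libraries (SD, n = 4 each). Genes of rRNA biotypes held 0.0599% in palmitate and 0.0532% in control libraries, and the total normalized count in palmitate libraries was 97.1% of that in control libraries. Each of these 3 differences had an exact two-sided permutation p of 0.0286, the smallest that 70 assignments allow, and their part in the results was not tested. The 100 highest genes held 18.9% in palmitate and 18.8% in control libraries (exact permutation p = 0.857). In bulk RNA, fewer cells that express a gene and less RNA of it per cell cannot be told apart.

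The label was checked against cell type markers. Of 25 progenitor and bile duct markers, 13 had a mean of at least 1000 normalized counts over the WT libraries and 7 a mean below 10. The keratin genes Krt8, Krt18, Krt19 and Krt7 averaged 22424, 18731, 3457 and 5669 in palmitate libraries and 22022, 19241, 3407 and 6465 in control libraries, and osteopontin (Spp1) 85761 in palmitate and 84275 in control libraries. Epcam, which encodes an adhesion molecule often used to define these cells, and the claudin gene Cldn7 had no read in any of the 8 libraries. Hepatocyte markers were mostly near 0. Of 21, 12 had a mean below 10, and albumin (Alb) averaged 0.863 ± 1.02 in palmitate and 1.43 ± 0.874 in control libraries (SD, n = 4 each). Fibroblast and stellate cell genes were abundant, with means in palmitate and control libraries of 53516 and 62288 for Col1a1 and 5714 and 5448 for Pdgfrb, while the stellate markers Lrat and Hand2 had no read. Of 12 macrophage and leukocyte markers, 8 had a mean below 10, and of these Adgre1, Cd3e, Clec4f, Marco and Tyrobp had no read. Others in the list were expressed, with Cd14 and Csf1r averaging 1194 and 700 in palmitate libraries and 980 and 583 in control libraries. Ptprc and Cd68 averaged 65.5 and 73.3 in palmitate libraries and 42.7 and 55.0 in control libraries. The libraries thus held both keratin and collagen RNA and had no read of Epcam and Cldn7, while the cadherin gene Cdh1 averaged 2180 in palmitate and 2294 in control libraries. In bulk RNA, cells that express both kinds of gene and a mixture of cells cannot be told apart.

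Palmitic acid moved many genes by a little and few by much. Of 15239 genes tested, 5734 were called (37.6%), 2702 higher (17.7%) and 3032 lower (19.9%), in limma with a Benjamini-Hochberg adjusted p under 0.05. After rescaling all libraries to the same total the split was 3655 higher and 2265 lower, and the median of all genes shifted by 0.04 on the log2 scale. The median size of a called change was 0.21 on the log2 scale, or 1.15-fold, and 90% of them were at or under 0.50. At least 1.5-fold higher were 289 genes (1.9%), and at least 1.5-fold lower 114 (0.748%). For at least 2-fold the counts were 86 (0.564%) and 21 (0.138%), 107 in all (0.702%). In 5658 genes (37.1%) the palmitate and control libraries did not overlap. The 12 largest rises and 12 largest falls were picked among genes without overlap, so for them its absence is no further result. They include Atf3, Slc7a11, Csf2, Egr1, Cpt1a, Pdk4, Angptl4, Lpcat1, Ung, Plau and Ppbp. The first principal component of the 8 libraries held 35.15% of the variance and separated palmitate libraries, at 12.24 to 19.18, from control libraries, at -20.51 to -12.9. Calls went with level, with 9.76% of the 3810 genes of lowest mean count called and 59.5% of the 3810 of highest. Among the lowest 289 genes were higher and 83 lower, and among the highest 708 were higher and 1558 lower. In what follows a change given after rose, fell or at, or in parentheses with its SE, is a log2 fold change of palmitate over control, and levels are normalized counts per library. Counts of called list members are to be read beside the 17.7% called higher and 19.9% called lower over all genes.

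**Figure D1:**
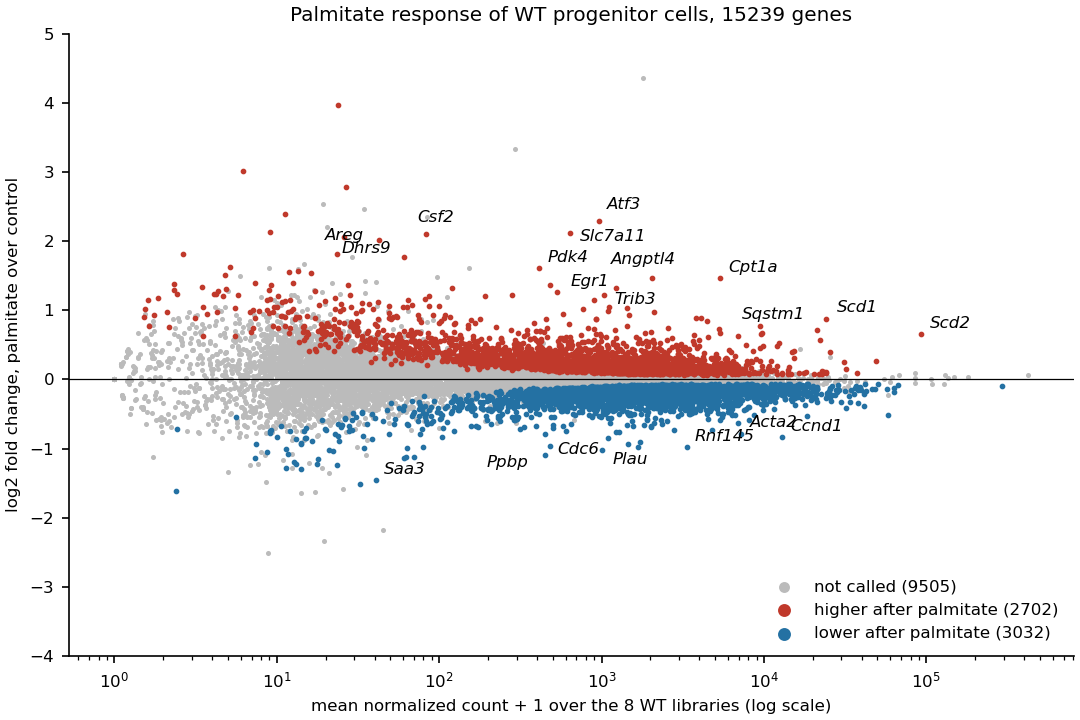
Log2 fold change of palmitate over control in WT cells (vertical axis, from limma) against the mean normalized count plus 1 over the 8 WT libraries (horizontal axis, log scale) for the 15239 genes tested, with called genes coloured by direction. The 2702 genes called higher and 3032 called lower lie mostly close to 0, the labelled rises reach 2.29 (Atf3) and the labelled falls -1.45 (Saa3), and some genes, called or not, lie farther out, as mt-Co3 at 4.35 (not called).

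Stress regulators downstream of eIF2α stood among the largest rises. Atf3 (ENSMUSG00000026628.13, chromosome 1, 191170296 to 191218039 in the GENCODE vM21 annotation of GRCm38, as for the other positions given), a stress-induced transcription factor gene, had 1625, 1530.3, 1556 and 1656 normalized counts in palmitate libraries, against 312, 316, 342 and 333 in control libraries. Every palmitate library was above every control library, and the log2 fold change was 2.29 ± 0.06 (SE, limma adjusted p = 3.81e-20). Ddit3, which encodes CHOP, had 1142, 1192, 1186 and 1253 with palmitate, against 662, 653, 663 and 632 in controls (0.87 ± 0.04, adjusted p = 2.42e-15). Atf4 itself had 11194, 10506, 10747 and 10979.7 with palmitate, against 8214, 7990.1, 8029 and 7548 in controls (0.45 ± 0.03, adjusted p = 1.9e-11). In both genes every palmitate library was above every control library. Of the 19 genes listed as ATF4 and CHOP stress regulators, 16 rose and none fell, with a median log2 fold change of 0.64. Over all genes tested the median was 0.01, with 17.7% called higher and 19.9% lower. The pseudokinase gene Trib3 rose by 1.22 ± 0.08, the glutathione-degrading enzyme gene Chac1 by 1.26 ± 0.10, and Ppp1r15a, whose product GADD34 recruits the phosphatase that reverses eIF2α phosphorylation, by 1.05 ± 0.04. The mTORC1 inhibitor genes Ddit4 and Sesn2 rose by 0.98 ± 0.07 and 0.64 ± 0.06. Of the 4 eIF2α kinase genes, Eif2ak3 (PERK) and Eif2ak4 (GCN2) rose by 0.10 ± 0.03 and 0.14 ± 0.05, calls lost without palmitate replicate 2 (0.08) for PERK and without control replicate 2 (0.12) for GCN2, while Eif2ak1 and Eif2ak2 were at -0.05 and 0.03 and not called. Cebpb, at 0.19, was the third member not called, and it was called higher after rescaling to the same total (0.23), in DESeq2 (0.19), with a replicate block (adjusted p = 0.0177) and without control replicate 3 or 4 (0.25 and 0.23).

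Several of these genes carry, close to their start site, a sequence that ATF4 and CHOP are known to bind with C/EBP factors. The C/EBP-ATF response element was searched as TGATGNAAN on both strands in RefSeq promoters of GRCm38.p6, 250 bases before to 50 after a start site. It lay in 293 of the 10785 tested genes with a promoter (2.72%), in 18 of 202 genes at least 1.5-fold higher (8.91%), in 3 of 71 at least 1.5-fold lower (4.23%) and in 5 of 17 listed stress regulators (29.4%). For lists described below, it lay in 3 of 12 promoters of serine, single-carbon and asparagine synthesis (25%) and 2 of 10 of amino acid transporters (20%). The highest of these shares, 5 of 12 (41.7%), was that of the cytosolic aminoacyl-tRNA synthetase genes, a list of 20 in which 7 rose and 6 fell. These shares are descriptions, and a match is neither a binding site shown in these cells nor a cause. Windows of 60 bases before the start site are shown for 5 genes that rose, 5′ to 3′ on the gene's strand, so that the shared core can be seen, with the match on either strand in capitals. The windows are chr1:191183411-191183470 (minus strand) for Atf3, chr2:119351022-119351081 (plus) for Chac1, chr3:50443628-50443687 (minus) for Slc7a11, chr7:126625548-126625607 (minus) for Nupr1 and chr8:94386290-94386349 (plus) for Herpud1.
Atf3: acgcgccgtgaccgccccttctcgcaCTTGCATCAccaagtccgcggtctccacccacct
Chac1: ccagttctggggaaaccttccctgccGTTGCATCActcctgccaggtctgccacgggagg
Slc7a11: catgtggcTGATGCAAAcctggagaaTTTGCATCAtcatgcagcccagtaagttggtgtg
Nupr1: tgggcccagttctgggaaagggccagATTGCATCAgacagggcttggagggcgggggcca
Herpud1: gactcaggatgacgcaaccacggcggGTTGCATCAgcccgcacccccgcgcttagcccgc
All 5 windows shown hold the run TGCATCA, while the matches near the start sites of Trib3 and Asns, not shown, do not. The run reads TGATGCA on the other strand, and the Slc7a11 window holds it once in each orientation. These genes rose by 2.29, 1.26, 2.12, 1.03 and 0.74 in the order of the lines above.

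Amino acid supply genes rose with the stress regulators. Slc7a11 (ENSMUSG00000027737.10, chromosome 3, 49892526 to 50443614), the cystine importer that feeds glutathione synthesis, had 984, 1034, 1041 and 1083 in palmitate libraries, against 236, 213, 242 and 262 in control libraries. The groups were far apart, with a log2 fold change of 2.12 ± 0.07 (SE, adjusted p = 1.77e-19). Of 15 amino acid transporter genes 10 rose and 1 fell (median 0.27), among them the glycine transporter gene Slc6a9 at 0.72 ± 0.06, the neutral amino acid transporter gene Slc1a4 at 0.66 ± 0.10 and Slc3a2, the partner chain of Slc7a11, at 0.62 ± 0.03. Among 14 genes of serine, single-carbon and asparagine synthesis 9 rose and 1 fell (median 0.21). Asparagine synthetase (Asns) had 3169, 3195, 3093 and 3125 with palmitate, against 2450.0, 2206, 2206 and 2234 in controls (0.47 ± 0.05), with the first control library above the other controls and below every palmitate library. Phgdh, which starts serine synthesis, fell by 0.22. Of 20 cytosolic aminoacyl-tRNA synthetase genes, which charge tRNAs with amino acids, 7 rose and 6 fell (median 0.03), with Cars at 0.29 ± 0.03 and Vars at -0.17 ± 0.03; after quantile normalization 11 rose.

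Most ER chaperone genes changed little while several ER stress sensor and degradation genes rose. Of 27 tested genes of ER folding and ER-associated degradation (ERAD), 13 rose and 2 fell (median 0.06), and 0 or 1 fell when any 1 of the palmitate replicates, or control replicate 1 or 3, was left out. Herpud1, an ERAD scaffold gene, had 3083, 3169, 3267 and 3229.8 with palmitate, against 1819, 1828, 2008 and 1987 in controls (0.74 ± 0.04, adjusted p = 9.14e-14). The sensor gene Ern1 (IRE1α) rose by 0.31 ± 0.04, its target Xbp1 by 0.32 ± 0.04, and the ERAD ligase partner Sel1l by 0.26 ± 0.03. Hspa5, which encodes the main ER chaperone BiP, had 18461, 17872, 18645 and 18174 with palmitate, against 17851, 16836, 17219 and 16909 in controls. That was a rise of 0.09 ± 0.03 (adjusted p = 0.0197), and the highest control library lay just below the lowest palmitate library. Without control replicate 2 or palmitate replicate 3 it was 0.08 and not called. The chaperone and disulfide isomerase genes Calr, Pdia3, Pdia6 and Dnajb11 lay between -0.02 and 0.04 and were not called, though the first 3 were called higher after quantile normalization (0.09 to 0.10). The ER stress element, searched on both strands as CCAAT and CCACG with any 9 bases between them, lay in 8 of 23 promoters of this list (34.8%) and in 16 of 10785 (0.148%). The Hspa5 window, chr2:34772004-34772063 (plus strand), is printed because this gene is the usual marker of ER stress.
Hspa5: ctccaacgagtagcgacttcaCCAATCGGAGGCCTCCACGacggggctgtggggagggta
Capitals again mark the match.

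Heat shock genes moved down more often than up. Of 18, 5 were higher and 10 lower (median -0.09), and after quantile normalization 6 were lower. Hsp90aa1 fell by 0.31, Hspa4 by 0.29, and the mitochondrial chaperonin pair Hspe1 and Hspd1 by 0.30 and 0.26. Hspa1a had 19, 15.2, 25.8 and 29.7 with palmitate, against 24.8, 15.4, 8.36 and 10.8 in controls, and the groups overlapped (0.63 ± 0.24, adjusted p = 0.0451). Its call was lost in 12 of 17 other settings, among them edgeR and DESeq2 (adjusted p = 0.111 and 0.102), quantile normalization (0.106), the replicate block (0.0901), the WT libraries alone (0.0849) and palmitate replicate 3 or 4 or control replicate 2, 3 or 4 left out (log2 0.41 to 0.68). It shares near-identical sequence with Hspa1b. Among 24 tested NRF2 target and antioxidant genes, 14 rose and 2 fell (median 0.13). Heme oxygenase (Hmox1) had 1485, 1395, 1423 and 1491 with palmitate, against 806, 742, 706 and 674 in controls, a rise of 0.99 ± 0.07. Sqstm1, which encodes the autophagy adaptor p62, rose by 0.72 ± 0.03 and the sulfiredoxin gene Srxn1 by 0.53 ± 0.04. Nqo1, often read as an NRF2 marker, had 160.2, 167, 178 and 182 with palmitate, against 159.6, 143, 154 and 144 in controls (0.19 ± 0.15, adjusted p = 0.323); the groups did not overlap but the difference was not called. Iron genes split, with the ferritin genes Ftl1 and Fth1 at 0.27 ± 0.03 and 0.14 ± 0.03, both higher, and the transferrin receptor gene Tfrc lower by 0.33. The antioxidant response element, searched as TGACNNNGC, lay in 8 of 19 promoters of the NRF2 list (42.1%) and in 1803 of 10785 (16.7%). Among genes at least 1.5-fold higher it was no more frequent than in all, at 31 of 202 (15.3%), and it lay in 6 of 71 at least 1.5-fold lower (8.45%).

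**Figure D2:**
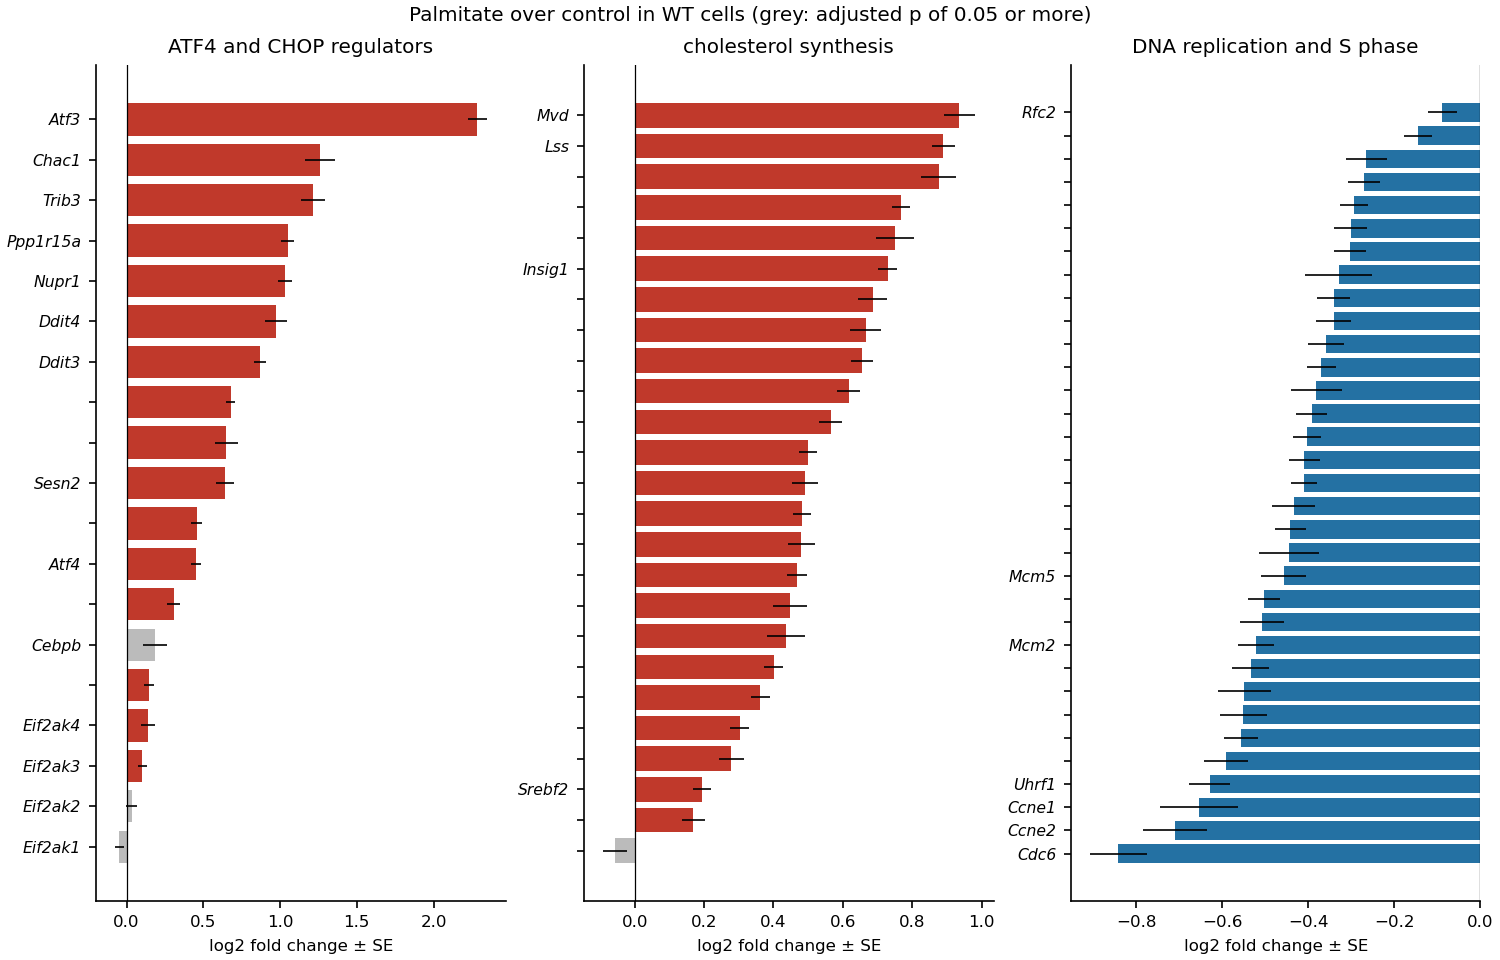
Log2 fold change of palmitate over control in WT cells with its SE (horizontal axis) for each tested member of 3 lists: ATF4 and CHOP stress regulators, cholesterol synthesis and SREBP2 targets, and DNA replication and S phase. Grey bars have an adjusted p of 0.05 or more, and members described in the text are labelled. Of the stress regulators 16 of 19 rose, of the cholesterol genes 24 of 25 rose, and all 33 replication genes fell.

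Genes that handle fatty acids rose, the largest of them those that PPAR factors switch on when fatty acids arrive. Cpt1a (ENSMUSG00000024900.5, chromosome 19, 3322334 to 3385733), the gate for fatty acids into mitochondria, had 7758, 7776, 8026 and 8036 normalized counts in palmitate libraries, against 2749, 2786, 2896 and 3037 in control libraries. Its groups lay far apart, at 1.46 ± 0.03 (adjusted p = 2.2e-24). Pdk4, which turns down pyruvate oxidation, had 647, 607, 589.9 and 628 with palmitate, against 184, 223, 196 and 206 in controls (1.61 ± 0.06, adjusted p = 4.26e-18). Angptl4, which encodes a secreted inhibitor of lipoprotein lipase, had 2905, 3049.8, 3014 and 3077 with palmitate, against 1065, 1020.2, 1104 and 1187 in controls (1.46 ± 0.07, adjusted p = 7.11e-12). None of the 3 overlapped, which the naming rule required. Of 23 tested PPAR targets 13 rose and none fell (median 0.54, but 0.20 at a pseudocount of 10 and 0.33 and 0.35 without control replicate 1 or 2). The acyl-CoA thioesterase genes Acot2 and Acot1 rose by 1.36 and 1.20, and since their sequences are near-identical the counting could have split reads between them. Cd36, which encodes a fatty acid translocase, had means of 2.53 in palmitate libraries and 3.38 in control libraries and was not called. Fgf21, a hormone gene below the filter, had 36 reads over the palmitate libraries and 9 over the control libraries.

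Beyond the entry step, oxidation enzymes changed modestly. Of 21 mitochondrial fatty acid oxidation genes 14 rose and 2 fell (median 0.15), with the carnitine carrier gene Slc25a20 at 0.74 ± 0.04, the thiolase gene Acaa2 at 0.32 ± 0.03, and both chains of the trifunctional protein at -0.02 (Hadha, not called) and -0.10 (Hadhb, lower). The 2 falls were of Hadhb and Echs1 (-0.10). No member was lower after rescaling to the same total, after quantile normalization or without palmitate replicate 2 or control replicate 1, and 1 without palmitate replicate 4 or control replicate 4. Of 25 peroxisomal genes 9 rose and none fell (median 0.11), with Crot, which moves peroxisomal products onto carnitine, at 0.33 ± 0.04. Respiratory chain subunits encoded in the nucleus did not rise with them. Of 31, none was higher and 18 were lower (median -0.09), but rescaling to the same total left 8 of them lower and quantile normalization 6. Cytochrome c (Cycs) fell most, by 0.31. Of the 13 mRNAs encoded in mitochondria, which share reads with nuclear copies, mt-Nd4l fell by 0.49 and mt-Nd6 by 0.75. None was higher as fitted, but 3 were called higher after rescaling to the same total, 2 in DESeq2 and with the WT libraries alone, and 1 in 8 further settings. The median of the 13, at -0.03, was 0.01 after rescaling. The mt-Nd6 call was lost with a replicate block (adjusted p = 0.0760), with the WT libraries alone (0.0693) and without palmitate replicate 4 or control replicate 2 or 4 (log2 -0.68 to -0.56).

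The cholesterol pathway rose almost whole. Of 25 genes of cholesterol synthesis and other SREBP2 targets 24 rose and none fell (median 0.49), and 1 was not called. Mvd, in the mevalonate branch, had 1850.3, 2010.2, 1987 and 1937 in palmitate libraries, against 1006, 1005, 1029.8 and 1024 in control libraries. Lanosterol synthase (Lss) had 5164, 5320.2, 5337 and 5445 with palmitate, against 2819, 2742, 2963 and 2953 in controls. Both pairs of groups were apart, with changes of 0.94 ± 0.04 and 0.89 ± 0.03 and adjusted p-values of 1.58e-15 and 7.4e-18. Insig1, a feedback inhibitor of the pathway, rose by 0.73 ± 0.03, and the transcription factor gene Srebf2 by 0.19 ± 0.03. Among 18 tested genes of fatty acid synthesis and desaturation, 12 rose and 4 fell. The stearoyl-CoA desaturase genes Scd1 and Scd2, whose products desaturate palmitate and stearate, had 30092 to 31795 and 109564 to 115458 normalized counts over the palmitate libraries, against 16831 to 17171 and 71138 to 72933 over the control libraries (0.88 ± 0.03 and 0.66 ± 0.02). Fads2, the delta-6 desaturase gene, rose by 0.56 ± 0.03. The genes that build new palmitate went the other way, with fatty acid synthase (Fasn) at 14098, 14779.7, 14002 and 15068 with palmitate, against 16711, 18057, 15713 and 16990.1 in controls, a fall of 0.22, and Acaca, which makes its malonyl-CoA, lower by 0.18. Acacb, whose product makes the malonyl-CoA that inhibits CPT1, rose by 1.07 ± 0.13.

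Storage genes rose as well. Plin2, which encodes the coat protein of lipid droplets, had 4718, 5047, 5024 and 5145 with palmitate, against 2733, 2679, 2742 and 2575 in controls (0.89 ± 0.03, adjusted p = 1.74e-18), without overlap. Of 14 tested droplet coat and lipase genes 11 rose and none fell (median 0.26), including the hormone-sensitive lipase gene Lipe at 0.71 ± 0.07 and the lipolysis inhibitor genes Hilpda and G0s2 at 0.58 ± 0.07 and 0.55 ± 0.07. Lpin1, a phosphatidate phosphatase gene, rose by 1.01 ± 0.05, but of 14 triglyceride synthesis genes only 4 rose and 2 fell, and Dgat1 and Dgat2, which make the last step, were at 0.02 and 0.06 and not called. Membrane lipid enzymes moved apart. Lpcat3, which puts polyunsaturated chains into phospholipids, rose by 0.51 ± 0.03, while Lpcat1, which makes saturated phosphatidylcholine, had 1079, 1149, 1237 and 1064 with palmitate, against 2196, 2252, 2256 and 2178 in controls, a fall of 0.97 without overlap. Of 23 ceramide and sphingolipid genes 5 rose and 4 fell (median -0.05), which is near the shares over all genes tested, 17.7% higher and 19.9% lower. Among the rises was Smpd2, higher by 0.24 to 0.31 over the settings. Sptlc1, a subunit of the enzyme that joins palmitoyl-CoA to serine, fell by 0.37, the ceramide synthase gene Cers5 by 0.31 and Ugcg, which makes glucosylceramide, by 0.74. Fatty acid uptake genes included the binding protein gene Fabp5, lower by 0.50, and the activating enzyme gene Acsl3, higher by 0.52 ± 0.03. Rnf145, which encodes an ER ubiquitin ligase, had 2272, 2235, 2229.7 and 2229.9 with palmitate, against 4473, 4319.8, 4553 and 4343 in controls, and fell by 0.98.

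**Figure D3:**
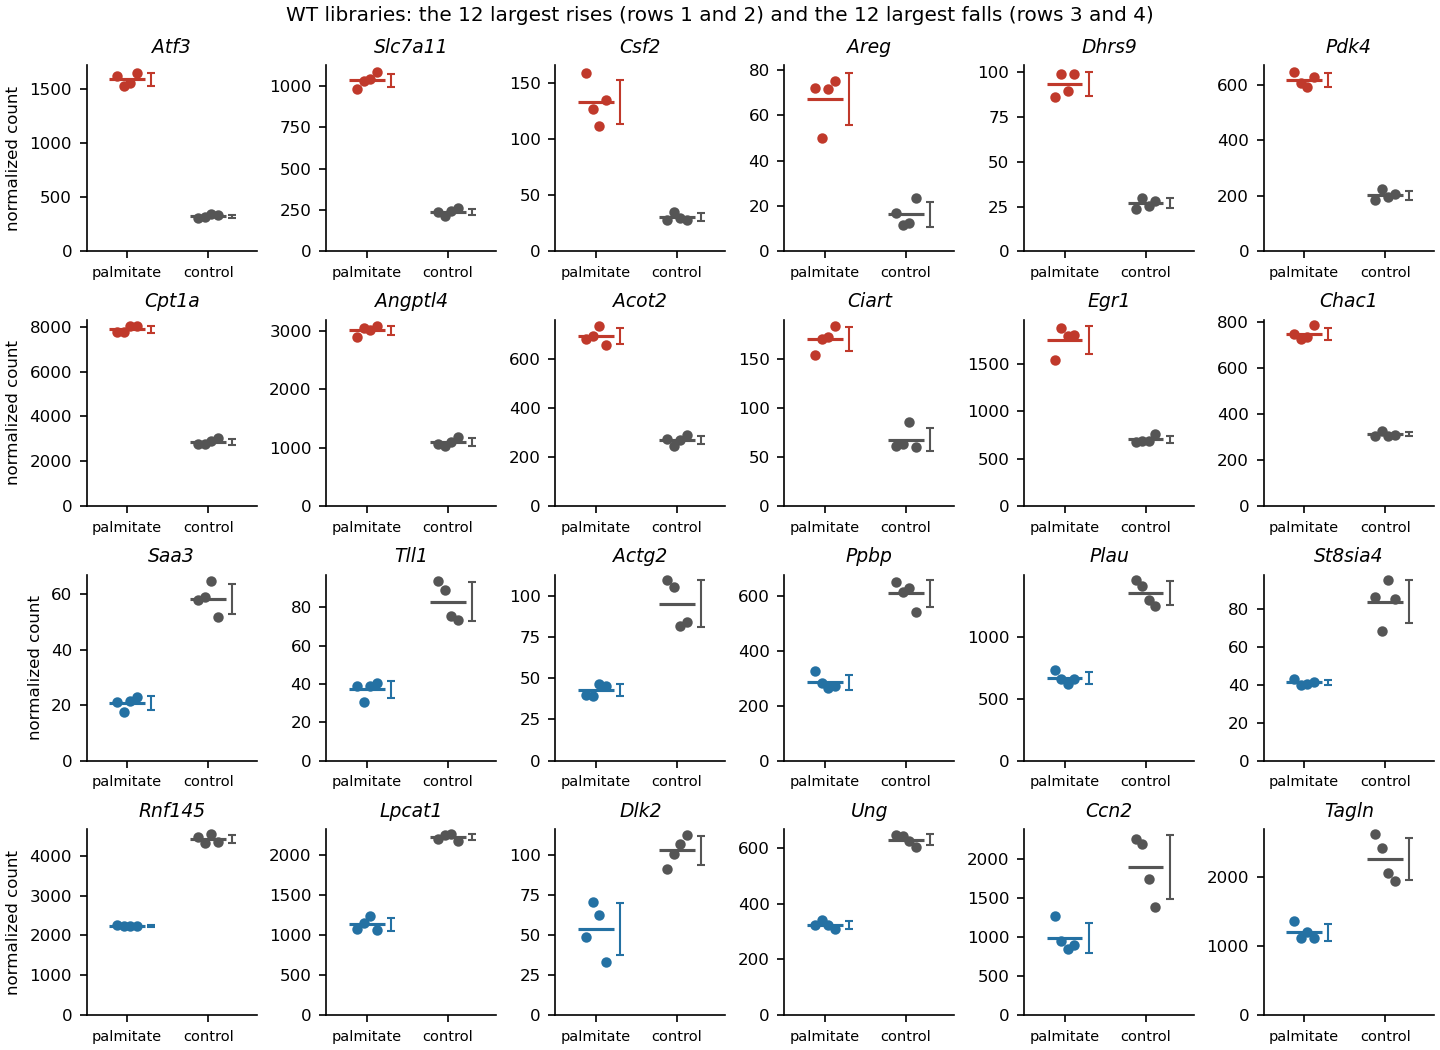
Normalized counts in each of the 4 palmitate and 4 control WT libraries (points) with the group mean (bar) and SD (error bar) for the 12 largest rises (rows 1 and 2) and the 12 largest falls (rows 3 and 4) of genes that were called, averaged 50 or more in the higher group and did not overlap between the groups, which the rule required. Each axis starts at 0. The rises run from Atf3 at 2.29 to Chac1 at 1.26 and the falls from Saa3 at -1.45 to Tagln at -0.91 (log2, palmitate over control).

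Growth genes fell. All 33 genes listed under DNA replication and S phase were lower (median -0.41). The smallest fall was that of Rfc2, at -0.09, and its call was lost without palmitate replicate 1, 3 or 4 or control replicate 1, 2 or 3 (-0.09 to -0.07), after rescaling to the same total (-0.05) and after quantile normalization (-0.07). Cdc6, which loads the replicative helicase, had 847, 751, 773 and 749.9 in palmitate libraries, against 1449, 1498, 1396 and 1257 in control libraries (-0.84 ± 0.07, adjusted p = 6.08e-10). The helicase subunit gene Mcm2 had 5576, 5091, 5067 and 5226 with palmitate, against 7746, 7528, 7683 and 7134 in controls (-0.52 ± 0.04, adjusted p = 1.81e-09). The cyclin E genes Ccne1 and Ccne2 fell by 0.65 and 0.71, and Ung, which removes uracil from DNA, by 0.96. No palmitate library reached the lowest control library in any of these 5. Of 31 mitosis and G2/M genes 16 fell and 1 rose (median -0.09), with Cdk1 lower by 0.31, and the proliferation marker Mki67 had 10664, 10013, 9867 and 10066 with palmitate, against 10237, 11163, 9599.8 and 10867 in controls, overlapped and was not called (-0.04 ± 0.05). The single rise, of Cdc25c, was lost without palmitate replicate 1 or control replicate 2 or 3 (0.11 to 0.13). Cyclin D1 (Ccnd1) had 10453, 9053, 8623 and 9014 with palmitate, against 17257, 16916, 16979.9 and 15034 in controls (-0.84 ± 0.06, adjusted p = 1.91e-08), and the CDK4/6 inhibitor gene Cdkn2b rose by 0.62 ± 0.05. Cdkn1a, the p21 gene, rose by 0.09 ± 0.03, a call lost without palmitate replicate 2 or control replicate 3 (0.07 and 0.08).

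E2F factors drive many replication genes, and their element, searched as TTTCGCGC or TTTGGCGC on both strands, lay in 187 of 10785 promoters (1.73%). It lay in 76 of 2375 promoters of genes called lower (3.2%), in 24 of 2109 of genes called higher (1.14%) and in 9 of 26 of the replication list (34.6%). A window of 60 bases before the start is shown for 2 replication genes that fell, chr17:56304102-56304161 for Uhrf1 and chr8:75109334-75109393 for Mcm5, both on the plus strand, with matches in capitals.
Uhrf1: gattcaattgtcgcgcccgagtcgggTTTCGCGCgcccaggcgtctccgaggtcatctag
Mcm5: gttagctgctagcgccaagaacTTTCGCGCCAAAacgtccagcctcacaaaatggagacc
The Mcm5 run holds 2 matches, 1 on each strand, that overlap by 4 bases. Uhrf1, a DNA methylation maintenance factor gene, fell by 0.63 and Mcm5, another helicase subunit gene, by 0.46.

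Ribosome biogenesis genes fell alongside. Of 30 MYC network and ribosome biogenesis genes 25 fell and 2 rose (median -0.35), with the small nucleolar RNP gene Nop56 at 5534, 4732, 4854 and 4873 with palmitate, against 7509, 7275, 6592 and 6359 in controls, a fall of 0.47. The 2 rises were of the MYC antagonist genes Mxd1, at 0.45 ± 0.07, and Mxi1, at 0.25 ± 0.03, while Myc itself, at 4009.9, 3751, 3519 and 3688 with palmitate, against 3793, 3747, 3367 and 3276 in controls, overlapped and was not called (0.08 ± 0.05). It was called higher, at 0.12 and 0.13, after rescaling to the same total and after quantile normalization. Of 35 cytosolic ribosomal protein genes 34 fell by small amounts (median -0.17), 21 after quantile normalization, with Rpl9 the largest at -0.30 ± 0.04. Of 17 small nucleolar RNA host genes 9 fell and none rose, led by Snhg4, lower by 0.43. These small falls went with the lower total normalized count of the palmitate libraries given above, whose part was not tested.

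Contractile and YAP target genes fell as well. Of 19, 17 fell and 1, F3, rose by 0.19 ± 0.04 (median -0.50), and 2 rose without palmitate replicate 1 or control replicate 4. Smooth muscle actin (Acta2) had 5643, 5218, 5195 and 5219 in palmitate libraries, against 10581, 9986, 8530.2 and 7780.5 in control libraries (-0.78 ± 0.14, adjusted p = 0.000539). The YAP target Ccn2, a matricellular growth factor gene, had 1267, 947, 844 and 903 with palmitate, against 2259.6, 2192, 1745 and 1387 in controls (-0.93 ± 0.15, adjusted p = 0.00034), and the actin-binding gene Tagln 1365, 1111, 1193 and 1113 with palmitate, against 2607, 2410.2, 2055 and 1942 in controls (-0.91 ± 0.15, adjusted p = 0.000227). The control libraries of these genes spread more than the palmitate libraries, from 1387 to 2259.6 for Ccn2, but stayed above them. Of 23 TGF-β pathway genes 10 fell and 2 rose. Tgfbi, a matrix protein gene, rose by 0.61 ± 0.09. Plau, the urokinase gene, fell by 1.02 and Ppbp, a chemokine gene, by 1.09, each without overlap, which the naming rule required. Among 27 mesenchymal genes 12 fell and 2 rose (1 rose when any 1 of the palmitate replicates, or control replicate 1 or 3, was left out), with the matrix genes Timp3, Tnc and Thbs1 lower by 0.63, 0.56 and 0.54. Of 21 collagen chains 4 fell and 3 rose, but 9 fell in edgeR, 8 in DESeq2 and 9 with the WT libraries alone. Col1a1 had 52186, 53807, 52581 and 55488 with palmitate, against 64433, 63076, 60203 and 61442 in controls, which did not overlap, but was not called (-0.22 ± 0.09, adjusted p = 0.0608); it was called by both count tests and with the WT libraries alone.

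**Figure D4:**
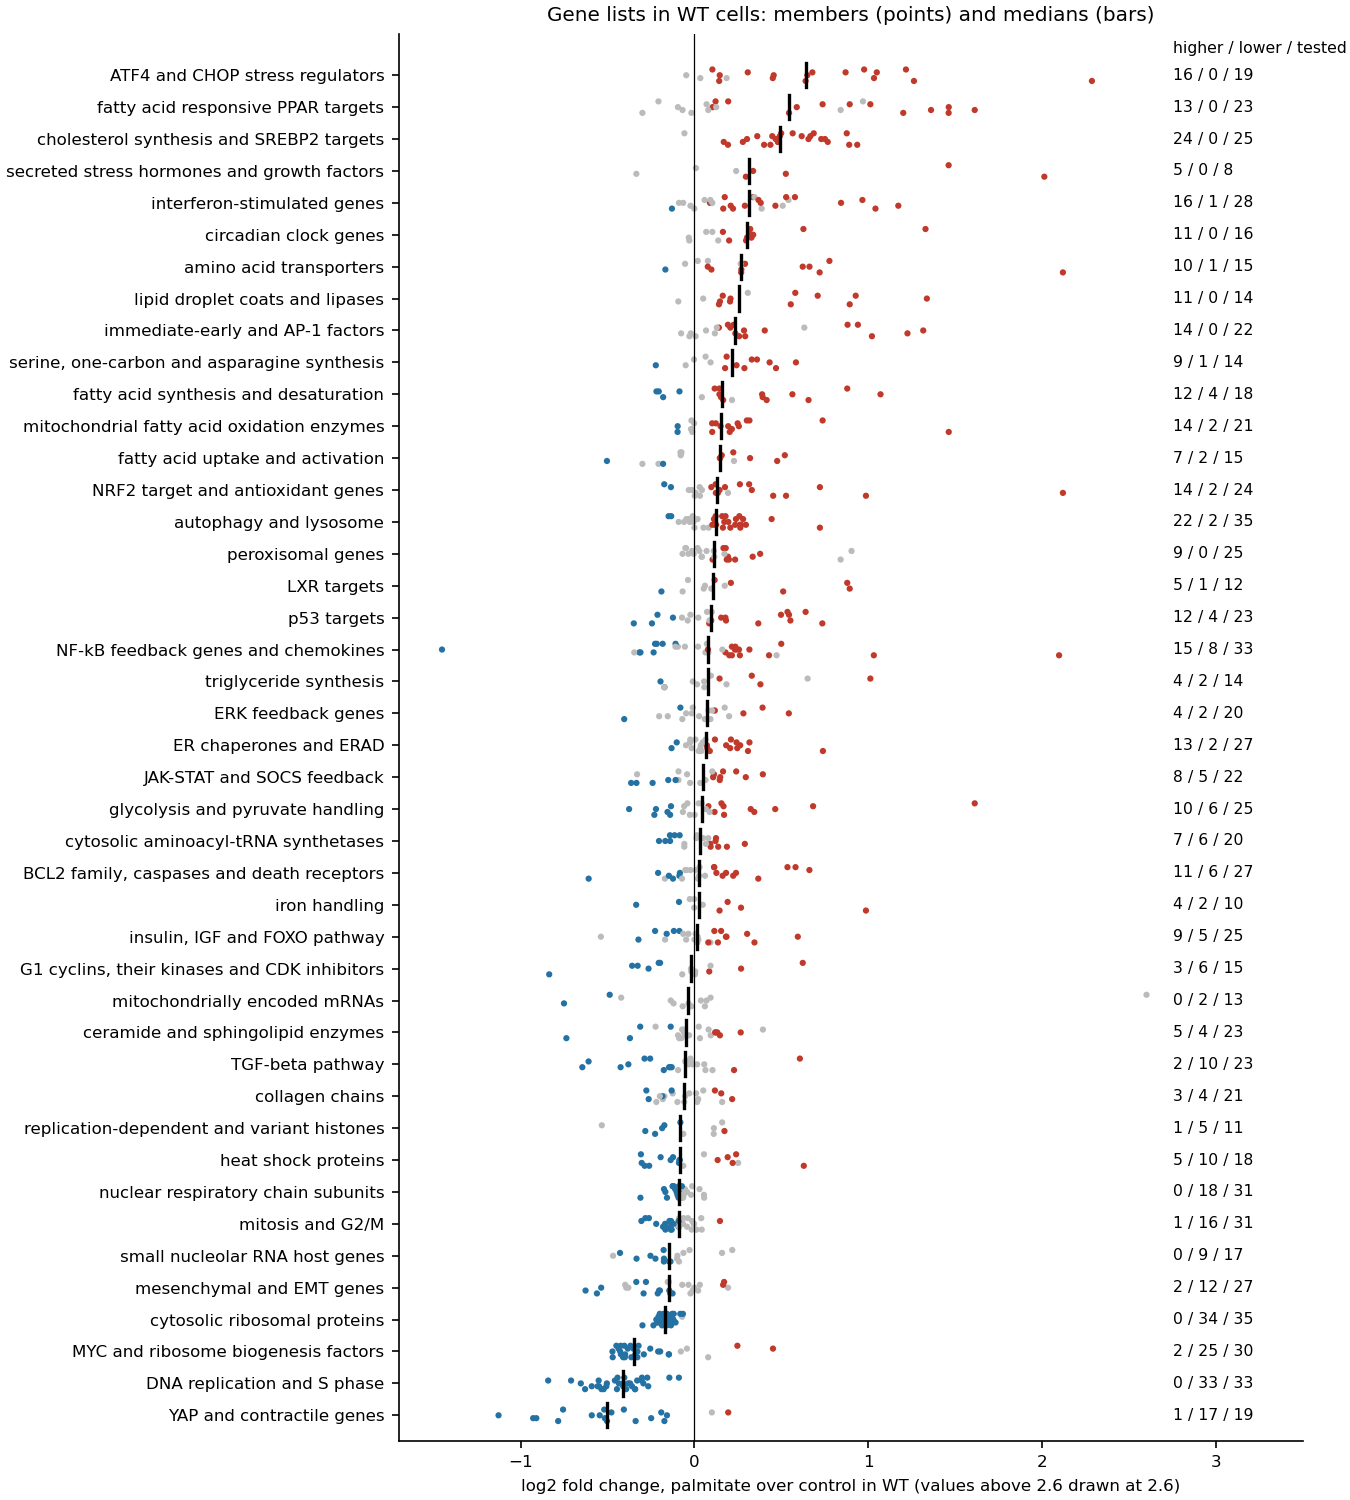
Log2 fold change of palmitate over control in WT cells (horizontal axis) for the tested members (points) of 43 gene lists, with the median (black bar) and, at the right, the number of members called higher and lower; values above 2.6 are drawn at 2.6. Stress regulators, PPAR targets and cholesterol genes lie right of 0 with medians of 0.64, 0.54 (0.20 at a pseudocount of 10) and 0.49, and YAP and contractile genes, replication genes and ribosome biogenesis genes lie left of it with medians of -0.50, -0.41 and -0.35.

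Immediate-early genes were higher at 8 h. Of 22 tested, 14 rose and none fell (median 0.23). Egr1 had 1546, 1881, 1803 and 1813 in palmitate libraries, against 682, 687, 690.0 and 763 in control libraries (1.32 ± 0.12, adjusted p = 2.02e-06), Fos 49.1, 58.7, 44.7 and 51.1 with palmitate, against 24.8, 26.4, 18.8 and 29.1 in controls (1.02 ± 0.20), and Klf4 748, 793, 693 and 802 with palmitate, against 389, 385, 400.4 and 403 in controls (0.94 ± 0.06). All 3 are transcription factor genes, and none overlapped. The growth factor gene Areg, an EGF receptor ligand, had 72.1, 50, 71.4 and 75.1 with palmitate, against 17.1, 11.8, 12.6 and 23.7 in controls, and rose by 2.01 ± 0.26 (adjusted p = 8.91e-07). Vegfa and the cytokine genes Lif and Gdf15 rose by 0.53 ± 0.03, 0.34 ± 0.04 and 0.30 ± 0.04. Of 20 ERK feedback genes 4 rose and 2 fell. After rescaling to the same total 7 rose, and 1 fell without palmitate replicate 2 or 3 or control replicate 1, 2 or 3. The ERK phosphatase genes Dusp4 and Dusp6 rose by 0.54 ± 0.05 and 0.39 ± 0.03, and Etv4, an ERK-driven ETS factor gene, fell by 0.40.

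Inflammatory genes went both ways. Csf2, which encodes GM-CSF, had 159, 127, 112 and 134 with palmitate, against 28.2, 35.4, 29.3 and 28 in controls (2.10 ± 0.15, adjusted p = 9.13e-12), and did not overlap. The acute-phase gene Saa3 had 21, 17.4, 21.5 and 23.1 with palmitate, against 58, 59, 64.8 and 51.7 in controls (-1.45 ± 0.15, adjusted p = 7.75e-09), the largest fall by the naming rule. Among 33 tested NF-κB feedback genes and chemokines 15 rose and 8 fell (median 0.08), and 5 fell without control replicate 1. Prostaglandin synthase 2 (Ptgs2), Icam1 and the inhibitor gene Nfkbia rose by 0.50 ± 0.06, 0.32 ± 0.04 and 0.20 ± 0.04. Tnfaip3, another inhibitor gene, fell by 0.23 and Ccl2 by 0.18, a call lost after quantile normalization (-0.10) and without control replicate 1 (-0.16). Cxcl1, at 4397, 3841, 3923 and 3979 with palmitate, against 3991, 3776, 3974 and 3611 in controls, and Il6, at 14, 15.9, 14.6 and 17.3 with palmitate, against 24.8, 17.3, 18.8 and 19.4 in controls, overlapped and were not called, and Tnf had 1 read in each group. Of 28 tested interferon-stimulated genes 16 rose and 1 fell (median 0.31). The viperin gene Rsad2 had 73.1, 87, 77.4 and 80.8 with palmitate, against 48.7, 36.3, 35.5 and 33.4 in controls (1.04 ± 0.26), and Irf7 57.1, 60.9, 56.8 and 78.4 with palmitate, against 26.5, 31.8, 26.1 and 45.3 in controls (0.97 ± 0.21). The fall, of Bst2, was -0.13 ± 0.05 and was not called in libraries scaled to 1 common total (log2 -0.09, adjusted p = 0.176), with a replicate block (0.0684), without the filter (0.0897) or without palmitate replicate 2, 3 or 4 or control replicate 1, 2 or 3 (log2 -0.13 to -0.11). In JAK-STAT signalling, on which PTP1B acts, 8 of 22 rose and 5 fell, with Tyk2 at 0.39 ± 0.05 and the feedback inhibitor genes Cish and Socs3 lower by 0.36 and 0.24. In the insulin and IGF pathway 9 of 25 rose and 5 fell, with the receptor gene Igf1r and the substrate gene Irs2 lower by 0.32 and 0.23 and Foxo3 and Pik3r3 higher by 0.30 ± 0.04 and 0.59 ± 0.05; 3 fell after rescaling or without control replicate 3. Ptpn1 itself had 1852, 1828, 1861 and 1866 with palmitate, against 1928, 1972, 1960.3 and 1885 in controls. Its groups did not overlap (exact permutation p = 0.0286, two-sided), but limma did not call the difference (-0.06 ± 0.04, adjusted p = 0.244).

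Clock, autophagy and death genes also moved. Of 16 tested circadian genes 11 rose and none fell (median 0.30), with the repressor gene Ciart at 154, 170.4, 173 and 184 with palmitate, against 61.5, 63.6, 85.7 and 60.4 in controls (1.33 ± 0.12), and Dbp, a clock output gene, at 0.63 ± 0.06. Of 35 autophagy and lysosome genes 22 rose and 2 fell (median 0.12), 1 without palmitate replicate 2, 3 or 4 or control replicate 2 or 3. They included Nbr1 and the mitophagy receptor gene Bnip3 at 0.30 ± 0.03 and 0.44 ± 0.04, both higher. Among 23 p53 targets 12 rose and 4 fell, with Gadd45a, a growth arrest gene, at 1070.3, 1146, 1123 and 1117 with palmitate, against 646, 634, 665 and 733 in controls (0.74 ± 0.06). Of 27 BCL2 family, caspase and death receptor genes 11 rose and 6 fell, 3 without palmitate replicate 2 or 4 or control replicate 1. The BH3-only death genes Bmf, Bbc3 (PUMA) and Pmaip1 (NOXA) rose by 0.66 ± 0.06, 0.54 ± 0.06 and 0.37 ± 0.03, and Bok fell by 0.61. Of 25 genes of glycolysis and pyruvate handling 10 rose and 6 fell (median 0.04). The hexokinase gene Hk2 and the transporter gene Slc2a1 fell by 0.38 and 0.23, and Txnip, which curbs glucose uptake, rose by 0.17 ± 0.03.

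Progenitor markers shifted little. Of 19 tested, 5 rose and 3 fell, and 5 fell without control replicate 4; their summed level was 168959 to 177571 in palmitate libraries and 168012 to 180133 in control libraries. Sox9, a transcription factor of bile duct and progenitor cells, had 499, 505, 477 and 532 with palmitate, against 329.5, 346, 314 and 380.5 in controls (0.56 ± 0.06), Cd24a fell by 0.28 and Krt7 by 0.19, and Krt19, at 0.02 ± 0.04, was not called. Of 11 tested hepatocyte markers 4 rose, with Apob at 0.60 ± 0.08, and the sum of the 21 was 5023.2 to 5246.88 in palmitate libraries, against 4403.99 to 4789.67 in control libraries. Markers of leukocytes moved as well. The 4 tested, Ptprc, Cd68, Cd14 and Csf1r, were higher by 0.61 ± 0.20, 0.41 ± 0.16, 0.29 ± 0.04 and 0.26 ± 0.05, and the sum of 12 was 2010.48 to 2055.04 in palmitate libraries, against 1614.37 to 1715.82 in control libraries. Without palmitate replicate 4 the Ptprc and Cd68 calls were lost (0.56 and 0.35), Ptprc also without control replicate 2 (0.55) and Cd68 also without palmitate replicate 1 (0.31) or control replicate 3 or 4 (0.39 and 0.29). Both calls were also lost after quantile normalization (0.51 and 0.32), and that of Cd68 in DESeq2 (0.40) and without the filter (0.41). The summed stellate and fibroblast markers were lower, 125741 to 131048 with palmitate, against 144785 to 153999 in controls. Of the 10 tested, however, only Acta2 was called lower, 9 were not called, and 4 had positive estimates. The abundant Col1a1, Col1a2 and Col3a1, at -0.22, -0.18 and -0.17, were among those not called. Col1a1 and Col3a1 were, however, called lower in edgeR, in DESeq2 and with the WT libraries alone. Over the settings 1 to 4 members of this list were called lower. The endothelial sums overlapped at 957.18 to 1047.72 with palmitate, against 1032.95 to 1108.36 in controls. Whether other cell types had a part in the results was not tested.

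Of 999 tested genes annotated as long noncoding RNA 12.8% were called, 79 higher and 49 lower, and of 13093 protein-coding genes 42.2%. Mirt1 had 322, 284, 299 and 310.2 with palmitate, against 495, 494, 522 and 434 in controls (-0.67 ± 0.06, adjusted p = 3.82e-09), and Mir17hg, the host gene of a growth-promoting miRNA cluster, 207, 154, 137 and 138 with palmitate, against 221, 266, 207 and 218 in controls, which overlapped (-0.53 ± 0.15). Mir99ahg, another miRNA host gene, had 94.1, 76.8, 84.3 and 71.8 with palmitate, against 62.3, 68.1, 48.1 and 73.3 in controls, overlapped and was called at 0.38 ± 0.13; the call was lost without palmitate replicate 1 or 3 or control replicate 3 (0.26 to 0.36). Whether counting used the strand is not given in the sources used here, so antisense RNAs were not singled out.

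The WT response was last set against that of KO cells, which has its own controls. In KO cells 5960 genes were called (39.1%), 2845 higher (18.7%) and 3115 lower (20.4%), and the difference of the responses, KO minus WT, was called for 1508 (9.9%), 638 higher (4.19%) and 870 lower (5.71%). Genes called in both genotypes numbered 3719, or 62.4% of the KO calls and 64.9% of the WT calls; 3564 of them went in the same direction and 155 in opposite directions. Across 15239 genes, which are not independent replicates, the changes correlated with Pearson's r = 0.457 and Spearman's rho = 0.522. Of the 107 WT genes past 2-fold, 52 were called in the same direction in KO cells and 27 differed by the test of the difference, 7 with a larger response in KO cells and 20 with a smaller or opposite one. These genes were picked by their WT change, which also enters the difference. The picking thus favours a smaller change in KO cells, and the split does not show a weaker KO response. The controls themselves were unlike, with Col1a1 at 1137 to 1544 in KO controls and 60203 to 64433 in WT controls and Acta2 at 311 to 453 in KO and 7780.5 to 10581 in WT controls, so a change on the log2 scale started from different levels in many genes.

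Protein folding genes and some stress genes had a larger log2 change in KO cells. Of the 19 stress regulators 6 had a higher and 3 a lower change in KO than in WT cells by the test of the difference, with medians of 0.61 in KO and 0.64 in WT cells, and of 15 amino acid transporters likewise 6 and 3. Chac1 had 307, 367, 428 and 435 in KO palmitate libraries, against 42, 40.1, 52.6 and 55.1 in KO controls, a change of 2.99 ± 0.10 in KO and 1.26 ± 0.10 in WT cells (difference 1.73 ± 0.14, adjusted p = 1.19e-08). In WT cells Chac1 averaged 746 with palmitate and 310 in controls. For Trib3 the changes were 3.30 ± 0.08 in KO and 1.22 ± 0.08 in WT cells (difference 2.08 ± 0.11, adjusted p = 3.97e-11), and for Slc7a11 3.27 ± 0.07 in KO and 2.12 ± 0.07 in WT cells. The Trib3 levels were 783 to 1124 after palmitate and 91.1 to 101 in controls of KO cells, and 1389.7 to 1545 after palmitate and 585 to 656 in controls of WT cells. BiP (Hspa5) was 0.55 ± 0.03 higher after palmitate in KO cells and 0.09 ± 0.03 in WT cells (difference 0.46 ± 0.04, adjusted p = 2.75e-08). Of the 27 ER folding and ERAD genes 26 rose in KO and 13 in WT cells, and 13 had a called difference, each toward a higher value in KO. Of 20 tRNA synthetase genes 14 rose in KO and 7 in WT cells, and 11 had a called difference, again each toward a higher value in KO.

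Other genes had a larger log2 change in WT cells, while many replication genes and Adm2 had a larger one in KO cells. Cpt1a changed by 0.67 ± 0.03 in KO and 1.46 ± 0.03 in WT cells (difference -0.80 ± 0.04, adjusted p = 1.85e-13), from controls at 12561 to 12886 in KO and 2749 to 3037 in WT. The ERK phosphatase genes Dusp4 and Dusp6 were at -0.07 ± 0.05 and 0.00 ± 0.03 in KO cells and 0.54 ± 0.05 and 0.39 ± 0.03 in WT cells, with differences of -0.61 ± 0.07 and -0.39 ± 0.05 (adjusted p = 2.72e-06 for each). Of the 24 NRF2 and antioxidant genes 10 had a lower change in KO than in WT cells and 1 a higher one, by the test of the difference. Saa3 was at 68.5 to 97.7 in KO palmitate libraries and 71.7 to 87.3 in KO controls, while it fell in WT cells (difference 1.43 ± 0.21, adjusted p = 3.18e-05). Replication genes fell in both genotypes, all 33, with medians of -0.64 in KO and -0.41 in WT cells, and 20 of them fell by more in KO. Some of the largest differences were of genes with low counts. Adm2, an adrenomedullin gene, had 17.3, 13, 22.2 and 19.5 with palmitate, against 0, 2.43, 4.79 and 5.7 in controls, in KO cells. In WT cells it had 118, 129.8, 125 and 116 with palmitate, against 112, 108, 95.1 and 98.1 in controls, and its difference of 2.22 ± 0.60 lost its call without KO palmitate replicate 3 or 4 or KO control replicate 2 (2.12 to 2.23). The aquaglyceroporin gene Aqp9 had 861 to 918 with palmitate, against 598 to 697 in controls, in KO cells and 11.6 to 15.5 with palmitate, against 1.71 to 4.31 in controls, in WT cells (difference -1.64 ± 0.22). Since the labels give no number of cell lines per genotype, a genotype difference and a difference between lines cannot be told apart.

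**Figure D5:**
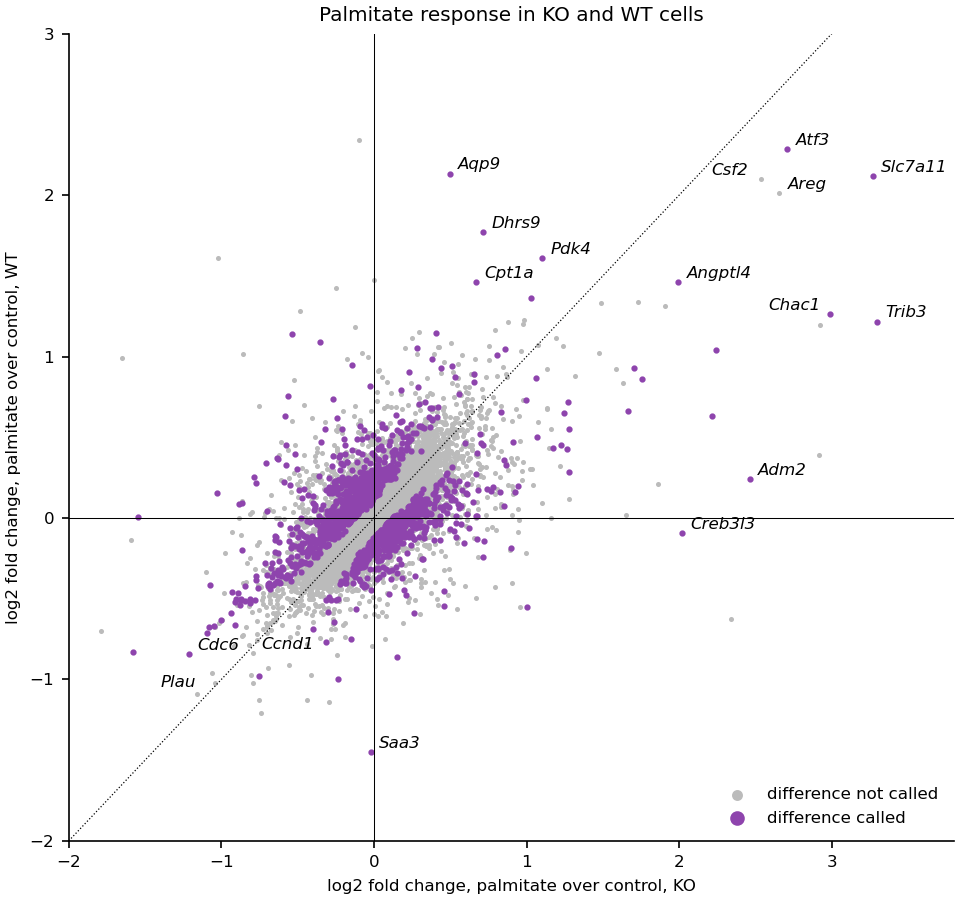
Log2 fold change of palmitate over control in KO cells (horizontal axis) and in WT cells (vertical axis) for the 12591 genes drawn, which had a mean of at least 50 in any of the 4 groups, with genes whose difference of responses was called in purple; 4 genes lie outside the axes. Atf3 lies near the diagonal at 2.71 in KO and 2.29 in WT, Trib3 and Chac1 lie right of it, and Cpt1a and Dhrs9 lie above it.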

How the data were processed

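RNA of 16 libraries, 4 per group, was measured. rRNA was removed from total RNA, per the labels' protocols, whose text speaks of FFPE samples and short fragmentation for low RNA quality. Per the submitters' processing notes STAR, RSEM, DESeq2 and limma were used; for their roles, their versions and the genome build the sources used here give nothing. The deposited normalized counts are a signal per gene, made by the authors from gene counts divided by a size factor per library, as read from the values: all values came out as whole reads within 0.1 read. The unit is thus not the plain count that count tests assume, and the log scale test below was used.

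Of 55421 genes, 15239 with at least 10 in at least 4 libraries were tested in limma 3.58.1 (R 4.3.3; trend, robust) on log2(value + 1), which understates changes of low genes, with all 16 libraries in a fit of 4 groups and Benjamini-Hochberg adjustment over all genes. Values printed after ± of a log2 change are SE, others SD. A gene is called at an adjusted p under 0.05. Single values were compared by exact permutation tests, two-sided. The depth was 24391863 to 35693442 gene reads in WT libraries. The fit was tested on simulated data.

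The comparison and the gene lists were chosen with earlier results of these data known. Named were Ptpn1, the 12 largest rises and falls without overlap and with a mean of at least 50, up to 4 called members of each of 48 lists with the largest change, a set of anchor genes, and the extremes of the difference and of lncRNAs. Further members in the text were chosen after their values were seen. Some genes that the rule names are not reported here. Alternatives were pseudocounts of 10 and 0.5, no filter, rescaling to the same total, quantile normalization, edgeR 4.0.16 quasi-likelihood and DESeq2 1.42.0 on recovered reads, a replicate block, WT libraries alone, and leaving out each library. Promoters are RefSeq windows of 300 bases of GRCm38.p6.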

Additional observations from a re-analysis of the deposited data

Results flagged for a closer look

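In 11 of 136 groups of 4 libraries checked, over 65 genes, a single library lay far from the other 3, where chance gives about 1 in 20. For Csf2 control replicate 2 had 35.43 normalized counts and the other controls 28.02 to 29.27. For Areg palmitate replicate 2 had 50.02, below the other palmitate libraries at 71.37 to 75.07. Ciart had 85.73 in control replicate 3, above 60.36 to 63.59 in the others, and Egr1 763.07 in control replicate 4, above 682.07 to 690.03. Rnf145 had 2271.81 in palmitate replicate 1, above 2229.68 to 2234.94, and Scd1 30092.2 there, below 31519.9 to 31795.1. Asns had 2449.99 in control replicate 1, above 2205.79 to 2234.24. Ccnd1 had 15034 in control replicate 4, below 16915.9 to 17256.6. Alb had 2.73 in control replicate 2, above 0.85 to 1.08. Control replicate 4 also stood apart for Gsta1, at 4.31 below 13.66 to 15.44, and for Aqp9, at 4.31 above 1.71 to 2.09. Each gene in this paragraph that was called in WT cells kept its call without that library, with the Gsta1 change at 0.75 without control replicate 4, against 1.14 with it.

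The palmitate response differed between genotypes, by the test of the difference in limma, for 36 of the same 65 genes. Over all genes tested it was called for 1508 of 15239 (9.9%). The 65 genes include the highest and lowest differences of the naming rule, which were picked among called differences, so the 2 shares cannot be compared. Differences are KO minus WT on the log2 scale, with the KO and then the WT change beside each. Among stress genes Atf3 differed by 0.42 (2.71 and 2.29), Slc7a11 by 1.15 (3.27 and 2.12), Chac1 by 1.73 (2.99 and 1.26), Trib3 by 2.08 (3.30 and 1.22) and Atf4 by 0.26 (0.71 and 0.45). Ddit3 differed by 0.19 (1.06 and 0.87), Asns by 0.44 (0.91 and 0.47), Hspa5 by 0.46 (0.55 and 0.09) and Xbp1 by 0.19 (0.51 and 0.32). Each of these 9 rose by more in KO cells, but of the 19 listed stress regulators 6 had a higher and 3 a lower change in KO cells, as had 6 and 3 of 15 amino acid transporters. Lipid genes went both ways. Pdk4 differed by -0.51 (1.10 and 1.61), Cpt1a by -0.80 (0.67 and 1.46), Acot2 by -0.33 (1.03 and 1.36), Plin2 by -0.24 (0.66 and 0.89) and Srebf1 by -0.13 (-0.01 and 0.12), while Angptl4 differed by 0.53 (1.99 and 1.46) and Scd2 by 0.18 (0.83 and 0.66).

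Of the other large responses in WT cells, Dhrs9 differed by -1.05 (0.72 and 1.77), Saa3 by 1.43 (-0.02 and -1.45), St8sia4 by 0.76 (-0.24 and -0.997) and Rnf145 by 0.23 (-0.75 and -0.98). Mcm2 differed by -0.39 (-0.91 and -0.52), Cxcl1 by 0.39 (0.46 and 0.07), Gdf15 by -0.31 (-0.01 and 0.30) and Txnip by 0.36 (0.53 and 0.17). Krt19 differed by 0.21 (0.23 and 0.02) and Sox9 by -0.34 (0.21 and 0.56). The ERK phosphatase genes Dusp4 and Dusp6 differed by -0.61 (-0.07 and 0.54) and -0.39 (0.00 and 0.39). The highest differences by the naming rule were of Adm2 at 2.22 (2.46 and 0.24), Creb3l3 at 2.11 (2.02 and -0.09) and Egr2 at 1.59 (2.22 and 0.63), beside Trib3 and Chac1. The lowest were of Gsta1 at -1.68 (-0.54 and 1.14), Aqp9 at -1.64 (0.50 and 2.13), Ednra at -1.55 (-1.55 and 0.01), Fmnl1 at -1.44 (-0.35 and 1.09) and Tex15 at -1.32 (-0.56 and 0.75), each at low counts in WT or KO cells. The Tex15 difference was called in 7 of 24 other settings and not in edgeR or DESeq2 (adjusted p = 0.215 and 0.260).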

How the results depend on the processing

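Calls in WT cells numbered 5202 to 6298 over the other settings (6231 in edgeR and 5731 in DESeq2) and 5003 to 5773 when 1 WT library was left out. The count of genes at least 2-fold was less stable, with 29 (25 higher and 4 lower) at a pseudocount of 10 and 243 (176 higher and 67 lower) without the filter, against 98 to 126 (78 to 104 higher, 19 to 29 lower) when a library was left out; low counts set this limit. Called differences of the responses numbered 1192 to 1786 when a library was left out. The Ptpn1 difference was -29.8 normalized counts after rescaling to the same total (exact permutation p = 0.286) and -101.8 to -72.7 without single libraries (p = 0.0286 to 0.0571). The mitochondrial mRNA share differed by 0.143 to 0.220 percentage points and that of the 100 highest genes by -0.0459 to 0.1125, lower in palmitate libraries in 3 of these 8. Of 4429 values of the 261 named genes under 17 settings, 4291 kept direction and call, 114 lost a call, 24 gained one and 0 changed direction with a call. Of 384 values of 16 named differences 360 kept the call; Tex15 lost it in 17 of 24 settings, Adm2 in 4, Ednra in 2 and Egr2 in 1, the cause of which was not tested. The median changed sign in some setting for the lists of mitochondrial mRNAs, cyclins of G1, insulin pathway, progenitor, stellate and endothelial genes. Whether replicate numbers pair the samples cannot be told, since the labels do not say what they mark. The share of the 100 highest genes had the same order of replicates in both WT groups. From replicate 1 to 4 it was 19.086, 18.899, 18.740 and 18.737% with palmitate and 19.093, 18.987, 18.653 and 18.620% in controls. Correlations over all genes were small. Same-numbered WT libraries deviated with correlations of 0.048, -0.003, -0.051 and -0.013, and with a replicate block 5741 genes were called in WT cells, 112 of them at least 2-fold, and 1555 differences.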
